A study of Mus musculus with 60 samples.

Results

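H3K27me3 peaks of exercised and sedentary mice were compared in the arm of the study that isolated nuclei and RNA simultaneously. The members were every peak of the pooled lists labelled H3K27me3, SIT, and exercised or sedentary. There were 25693 exercised and 10279 sedentary peaks, together 35972 of the 256375 peaks in the 12 lists of the series. The libraries were made by CUT&RUN-seq, in which an antibody guides a nuclease to a histone mark inside isolated nuclei and the released DNA is sequenced. The labels give 4 samples to each of these groups, out of 60 samples in all, of which 20 were IgG controls. All mice were male Emx1-NuTRAP mice, a cross of the Emx1-IRES-Cre knock-in with the NuTRAP reporter, whose Cre-positive cells carry tags on nuclei and ribosomes. The exercised (early-life exercise, ELE) mice were pair-housed with a running wheel from postnatal day 21 to 41, and the sedentary mice were pair-housed in standard cages over the same days. For SIT (simultaneous INTACT and TRAP), both hippocampi of a mouse were homogenized in a single tube, and tagged nuclei and ribosome-bound mRNA were taken from it. Emx1-Cre acts mostly in excitatory neurons, but it also marks neural progenitors, so the nuclei need not come from a single cell type.

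H3K27me3 is trimethylation of lysine 27 of histone H3, written by the Polycomb repressive complex PRC2. In neurons it lies in broad domains over developmental regulators and over genes of other lineages, which stay silent, while genes in active use lack it. A peak here is a stretch of DNA that the caller SEACR marked as enriched. A list says where such stretches were, not how strong they were, and a wider or extra peak can reflect more marked nuclei or more mark in each nucleus, which cannot be told apart in pooled nuclei. Each group was a single list with no replicate values, so no test was possible, and the 95% Wilson intervals given for shares cover the counting of peaks only. The study sequenced to a stated minimum, but the depth of each library is not part of the lists and is unknown here. In its RNA work the study left out samples of both groups, more of them sedentary, and it names fewer sedentary than exercised mice where peaks and RNA were compared. Whether the lists rest on equal numbers of libraries is not stated, and condition and number or depth of libraries cannot be told apart.

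The label was checked against marker genes. Here and in the gene lists, start sites are those of the basic transcript set of GENCODE M21, which leaves out many partial transcripts that the deposited annotation also uses. Of 39 Hox genes, which set body position in the embryo, 39 had a transcript start site inside a peak of at least 1 list and 38 in both. Of 10 neuronal genes in constant use, such as Snap25 and Syn1, 0 had a start site in a peak of either list. Among excitatory neuron markers, the start site of Prox1 lay in peaks of both lists, and those of Slc17a7, Camk2a, Neurod2, Neurod6, Emx1 and Tbr1 in neither, though an exercised peak of 2.55 kb lay upstream of Emx1, at -20551 bp. Of 12 interneuron markers, 11 had a start site in peaks of both lists, and Vip, a neuropeptide of one interneuron class, in the exercised list alone.

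The sequences below show what the classes of region look like in the reference genome. All are from the GRCm38.p6 assembly, the same build as mm10, written 5′ to 3′ with every CpG in capitals. CpG is the dinucleotide whose density is the best-known sequence feature of Polycomb targets, and it reads the same on both strands. The first is the central 300 bases (chr14:6925641-6925940, plus strand) of the widest exercised peak that overlapped no sedentary peak, a 21566 bp intergenic peak assigned to Gm10406. The second is the centre (chr3:92240860-92241159, plus strand) of the widest sedentary peak that overlapped no exercised peak, 10634 bp wide and assigned to Sprr2a2, a gene of the skin barrier. The third is the centre (chr15:102993244-102993543, plus strand) of the widest peak that matched 1 to 1, the exercised peak over the HoxC cluster that was assigned to Hotair.
Gm10406, exercised alone: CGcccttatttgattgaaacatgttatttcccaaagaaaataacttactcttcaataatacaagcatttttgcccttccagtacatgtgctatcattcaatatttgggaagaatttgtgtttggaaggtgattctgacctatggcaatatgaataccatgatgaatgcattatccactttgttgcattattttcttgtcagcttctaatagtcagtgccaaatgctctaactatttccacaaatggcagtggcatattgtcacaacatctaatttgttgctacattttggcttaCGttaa
Sprr2a2, sedentary alone: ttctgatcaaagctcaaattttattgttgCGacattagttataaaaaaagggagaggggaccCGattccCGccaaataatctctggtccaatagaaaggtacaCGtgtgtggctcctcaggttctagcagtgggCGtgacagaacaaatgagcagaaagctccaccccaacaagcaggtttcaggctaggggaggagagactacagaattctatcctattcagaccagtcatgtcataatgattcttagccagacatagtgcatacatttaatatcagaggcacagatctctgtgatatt
Hotair, matched: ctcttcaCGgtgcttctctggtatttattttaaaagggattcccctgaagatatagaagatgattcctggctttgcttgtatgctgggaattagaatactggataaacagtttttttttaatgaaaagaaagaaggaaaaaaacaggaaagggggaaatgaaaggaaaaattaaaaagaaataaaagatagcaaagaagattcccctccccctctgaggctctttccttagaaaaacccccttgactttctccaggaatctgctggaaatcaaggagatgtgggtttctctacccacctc
These windows held 2, 5 and 1 CpG and were 34.7%, 43.3% and 38.7% G or C. The CpG content of a peak's middle did not follow its class in these examples.

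Promoters of genes the study names for this mark show a wider range. They are RefSeq promoters, 250 bases before to 50 after the start site. Myoc (chr1:162638900-162639199, plus strand), which encodes the secreted protein myocilin, was covered in full by an exercised peak and not by a sedentary one. Prox1 (chr1:190170778-190171077, minus strand), a homeodomain regulator of dentate granule cells, has another RefSeq promoter with 14 CpG, and both were covered in full in both lists; the one printed is the richer in CpG. Efnb2 (chr8:8661193-8661492, minus strand), which encodes the ligand ephrin-B2, was covered in neither.
Myoc: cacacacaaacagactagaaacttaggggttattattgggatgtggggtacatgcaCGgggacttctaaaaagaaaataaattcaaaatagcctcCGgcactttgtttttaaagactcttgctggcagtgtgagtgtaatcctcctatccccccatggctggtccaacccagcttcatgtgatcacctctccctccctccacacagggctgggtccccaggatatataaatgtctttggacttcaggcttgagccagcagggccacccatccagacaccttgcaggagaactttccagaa
Prox1: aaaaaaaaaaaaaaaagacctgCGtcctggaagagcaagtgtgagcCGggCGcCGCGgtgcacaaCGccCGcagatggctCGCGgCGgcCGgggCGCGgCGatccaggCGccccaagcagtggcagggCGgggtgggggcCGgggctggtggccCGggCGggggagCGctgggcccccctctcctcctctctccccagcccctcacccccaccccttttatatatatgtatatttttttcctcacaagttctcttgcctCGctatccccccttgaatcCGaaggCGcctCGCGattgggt
Efnb2: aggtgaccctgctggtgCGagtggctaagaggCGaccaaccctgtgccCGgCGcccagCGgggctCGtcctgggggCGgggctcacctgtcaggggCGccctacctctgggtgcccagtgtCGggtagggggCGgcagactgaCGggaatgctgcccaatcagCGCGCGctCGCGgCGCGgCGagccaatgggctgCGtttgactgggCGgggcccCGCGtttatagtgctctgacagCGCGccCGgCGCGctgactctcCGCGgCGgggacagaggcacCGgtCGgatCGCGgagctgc
They held 2, 25 and 35 CpG. Of 32851 RefSeq promoters, 85.9% held at least as many CpG as Myoc, 18.4% as many as Prox1 and 6.95% as many as Efnb2.

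Nearly all of the sedentary list lay inside the exercised list. Of 10279 sedentary peaks, 10082 overlapped an exercised peak by at least 1 bp (98.1%, interval 97.8 to 98.3%), and 197 did not (1.92%). In the other direction, 9567 of 25693 exercised peaks overlapped a sedentary peak (37.2%, 36.6 to 37.8%), and 16126 did not (62.8%). By bases, 67.2 Mb were covered in both lists. That was 93.0% of the sedentary territory and 49.6% of the exercised territory. The exercised list thus held the sedentary list and a further 68.4 Mb, of which 45.7 Mb lay in peaks without overlap and 22.7 Mb in peaks that overlapped a sedentary peak, beside or between the sedentary peaks. Only 5.04 Mb were covered in the sedentary list alone, and 86.7% of this lay in peaks that overlapped an exercised peak.

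The exercised peaks without overlap were narrow. Their median width was 2406 bp (quartiles 1856 and 3314), against 6129 bp for the exercised peaks that overlapped (3838 and 10384) and 4375 bp for all sedentary peaks (3221 and 7261). Overlap climbed with width in the exercised list, from 9.51% of peaks up to 2 kb and 13.9% of those of 2 to 3 kb to 73.0% at 5 to 10 kb, 95.8% at 10 to 20 kb and 99.9% above 20 kb. In the sedentary list it was at least 95.6% in every width class. Peaks up to 2 kb made up 22.1% of the exercised list and 0.438% of the sedentary list, and the narrowest 5% of peaks ended at 1466 bp in the exercised and 2503 bp in the sedentary list. The lists therefore differed in how narrow a region they reported. The longer list was also the one with narrower peaks, and the part of this in the overlap was not tested.

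**Figure D1:**
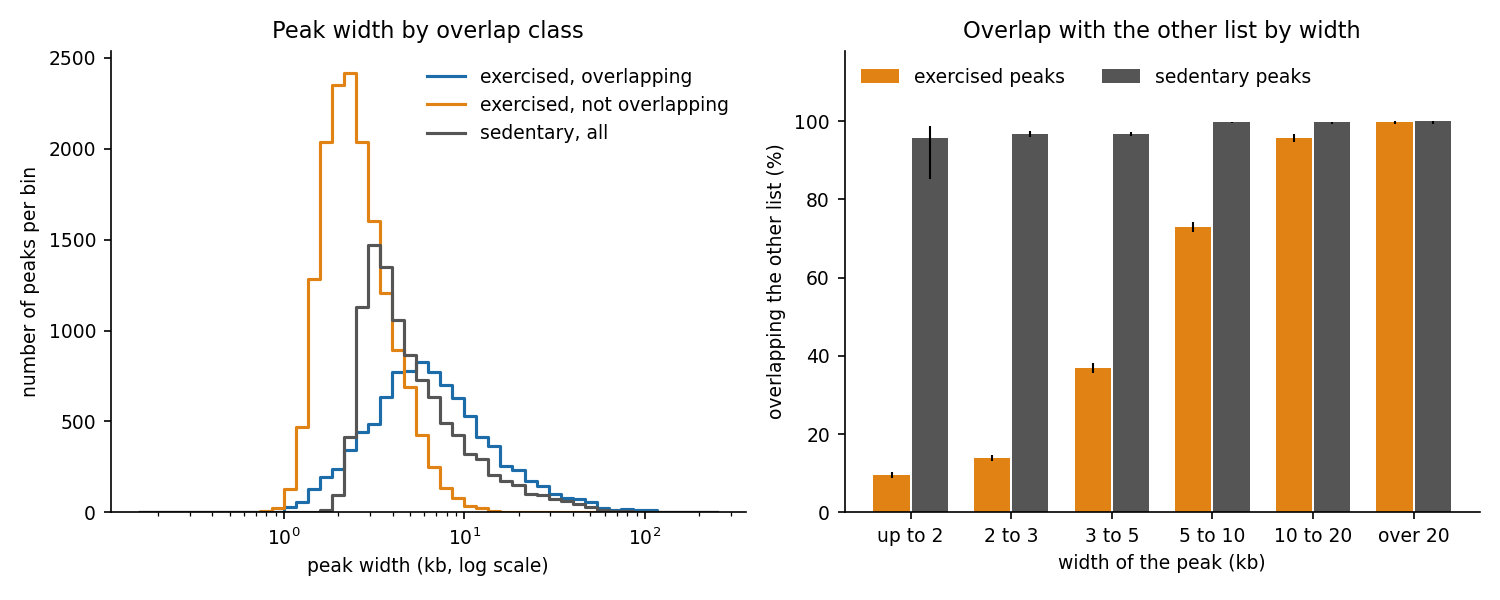
Left, number of H3K27me3 peaks per width bin (kb, log scale) for exercised SIT peaks that overlapped a sedentary peak, exercised peaks that did not, and all sedentary SIT peaks. Right, share of exercised and sedentary peaks that overlapped the other list, by width of the peak, with 95% Wilson intervals; exercised shares run from 9.51% to 99.9%, and sedentary shares stay at or above 95.6%.

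When the same number of peaks was taken from each list, the 10279 widest, 70.8% of exercised and 82.8% of sedentary peaks overlapped the other list. Equal numbers of peaks draw these shares together by construction. The cut kept every sedentary peak, with 72.3 Mb in all. The narrowest exercised peak kept was 3749 bp wide, and those kept covered 99.8 Mb. At a reciprocal overlap of 50% with a single peak, the shares were 24.8% of all exercised and 61.9% of all sedentary peaks, so many shared regions differed in extent.

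Shared regions were cut differently in the lists. A peak of each list matched a single peak of the other in 6492 pairs. In these, the exercised peak was the wider in 4902 (75.5%), with a median width ratio of 1.24 (upper quartile 1.64). The ratio was largest for narrow sedentary peaks, 1.60 at up to 3 kb, and near 1 for broad ones, 1.05 above 20 kb. Sedentary width is also the denominator of the ratio, so some fall with that width is built in. The exercised peak reached past both edges of its partner in 3024 pairs (46.6%) and lay within it in 650. Joins went in both directions: 1279 exercised peaks covered 2 or more sedentary peaks, and 1079 sedentary peaks covered 2 or more exercised peaks.

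The broadest domains show both patterns. The widest exercised peak spanned 233495 bp at Plcb4 (chr2:135601520-135835014), a phospholipase C of neuronal signalling, where the sedentary list had 10 separate peaks that together covered 93.8% of it. At Ptprm, a receptor-type phosphatase of cell adhesion, an exercised peak of 173404 bp held 8 sedentary peaks. Over the HoxC cluster the lists were alike, with 193011 bp in the exercised and 193722 bp in the sedentary list, and over HoxB with 159 and 158 kb. Over HoxD the exercised list had a single 138 kb peak and the sedentary list 3 peaks, the widest 64.0 kb. Over HoxA it was the sedentary list that had the wider peak, 160 kb against 120 kb. Between 97.3% and 100% of each cluster was covered in each list, so these clusters differed in how peaks were joined and not in the territory covered. Ebf1, a transcription factor of B cells and of some neurons, had a sedentary peak of 146501 bp, and 99.3% of it lay in a single exercised peak of 150464 bp.

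The exercised peaks without overlap often stood near sedentary peaks. Their median gap to the nearest sedentary peak was 21258 bp (quartiles 6225 and 86242). Of them, 21.0% lay within 5 kb of one, 66.3% within 50 kb, and 5.70% more than 500 kb away. The 197 sedentary peaks without overlap lay closer still to the other list, with a median gap of 2809 bp and 61.4% within 5 kb. Their gaps were measured to the longer list, 25693 peaks against 10279, so the directions are not on equal terms. When a peak within 5 kb was counted as overlap, 99.3% of sedentary and 50.4% of exercised peaks had a counterpart.

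**Figure D2:**
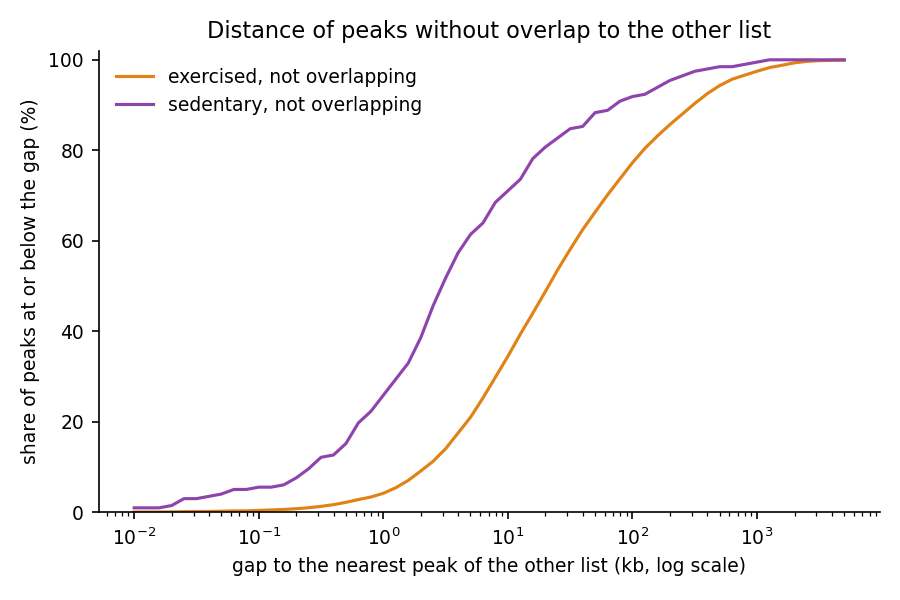
Cumulative share of H3K27me3 SIT peaks without overlap (vertical axis, %) by their gap to the nearest peak of the other list (horizontal axis, kb, log scale), for exercised and sedentary peaks. The sedentary curve stands to the left, with medians of 2809 bp for the sedentary and 21258 bp for the exercised peaks. Gaps of sedentary peaks are to the exercised list, which is the longer.

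Peaks found in the exercised list alone were less often at promoters. By the annotation, which counts a promoter as within 3 kb of a start site, 11.9% of them were promoter peaks (11.4 to 12.4%), against 27.9% of the exercised peaks that overlapped. Introns held 24.2% against 15.9%, and distal intergenic DNA 50.6% against 40.0%. The promoter share differed at matched width too. Among exercised peaks of 5 to 10 kb it was 13.7% without overlap (11.9 to 15.7%) and 28.1% with it (26.6 to 29.6%). Among those of 3 to 5 kb it was 14.0% and 24.5%, and among those of 2 to 3 kb 11.5% and 17.9%. The 197 sedentary peaks without overlap had a promoter share of 16.2%, with a wide interval of 11.7 to 22.0%.

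**Figure D3:**
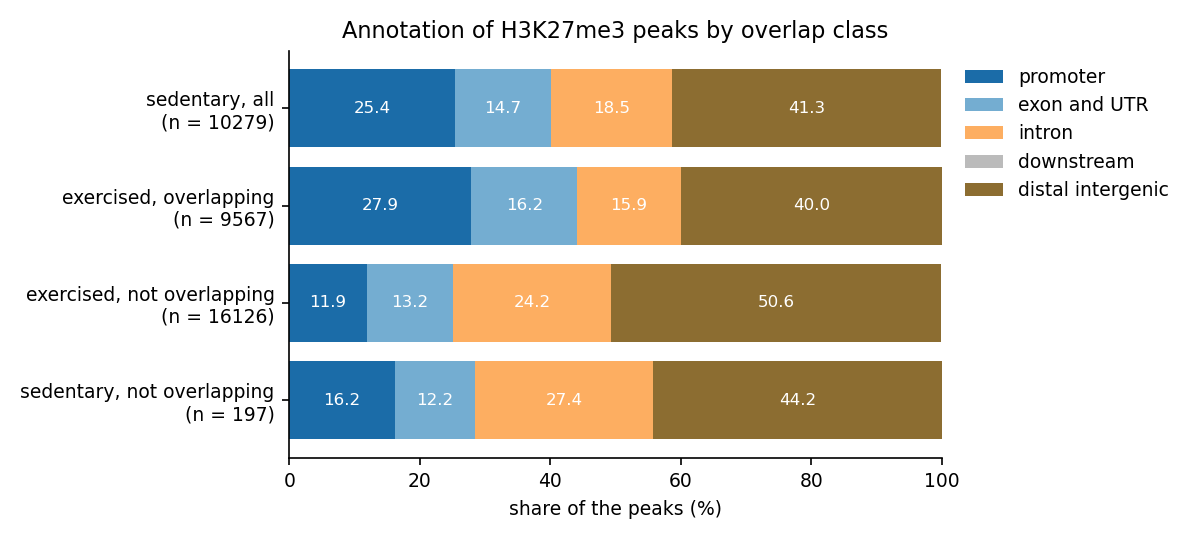
Annotation of H3K27me3 SIT peaks as a share of each class (horizontal axis, %), for all sedentary peaks, exercised peaks with and without a sedentary overlap, and sedentary peaks without an exercised overlap. Promoter peaks make up 27.9% of overlapping and 11.9% of non-overlapping exercised peaks, and distal intergenic peaks 40.0% and 50.6%.

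Distance to genes followed the same order. A start site lay inside 21.4% of the overlapping exercised peaks and inside 5.55% of those without overlap, and the median distance to the nearest start site was 23525 and 37145 bp. Of the exercised peaks without overlap, 4425 (27.4%) lay 100 kb or more from any annotated start. Peaks remote from the sedentary list were somewhat richer in promoters, 16.5% of those over 500 kb away against 10.5% of those within 5 kb.

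Every autosome held more exercised than sedentary peaks, with a ratio from 2.19 on chromosome 8 to 3.29 on chromosome 14. The share of exercised peaks without overlap ran from 58.1% on chromosome 11 to 71.6% on chromosome 14. The X chromosome held few peaks, 136 exercised and 38 sedentary, a ratio of 3.58, and 71.3% of its exercised peaks had no overlap. Chromosome Y held 5 and 1.

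By base composition the classes were close. Median G and C content was 43.5% in exercised peaks without overlap (quartiles 40.4 and 46.7%) and 44.5% in those with it (41.5 and 47.8%). CpG per 100 bp had medians of 0.877 (0.575 to 1.24) and 1.05 (0.727 to 1.45). The difference was seen at and away from start sites. Exercised peaks over a start site held 1.51 CpG per 100 bp without overlap and 1.72 with it, and peaks over 3 kb from one 0.849 and 0.953.

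At promoters themselves the difference in CpG was larger. RefSeq promoters covered in full in both lists (2137) had a median of 10 CpG (quartiles 5 and 19). Those covered in the exercised list and untouched in the sedentary list (1059) had a median of 5 (3 and 10), and the 29221 promoters touched in neither had 7 (3 and 21). At least 15 CpG were present in 36.4% of the promoters covered in both lists, in 17.3% of those covered in the exercised list alone and in 35.3% of those touched in neither. The 60 promoters covered in the sedentary list and untouched in the exercised list had a median of 4 CpG, and 45% of them held no more than 3, against 34.6% of those covered in the exercised list alone. A lower CpG count was thus seen for promoters of either list alone. The spread within each class was wide and the quartiles overlapped.

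The regions of the exercised list alone were next looked up in the lists of the left and right hippocampus, isolated separately. Of the 16126 peaks, 10139 (62.9%, 62.1 to 63.6%) overlapped a peak of at least 1 of those 4 H3K27me3 lists. A sedentary separate list held 54.2% of them and an exercised separate list 38.6%. The right sedentary list (21790 peaks) held 49.4%, the left exercised list (18262 peaks) 36.0%, the left sedentary list (14491 peaks) 22.5%, and the right exercised list (9899 peaks) 7.99%. The order of the shares was the order of list length and not that of condition. Of the 16126, 42 (0.26%) were in both exercised separate lists and in no sedentary one. The same held for 0.202% of all exercised peaks and 0.105% of the overlapping ones. Few peaks could qualify, because 94.7% of the 9899 right exercised peaks overlapped a right sedentary peak. The widest of the 42 lay at Serpinb13 (chr1:107009738-107015362, 5625 bp, intergenic) and in an intron at Fbxw7 (chr3:84770830-84776034, 5205 bp), a ubiquitin ligase subunit.

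Shared regions recurred more often. Of exercised peaks that overlapped a sedentary SIT peak, 98.3% were in at least 1 separate list and 52.6% in all 4. Of the 5987 exercised peaks found in no other H3K27me3 list the median width was 2117 bp, against 2681 bp for the 10139 that were. Among the 197 sedentary peaks without overlap, 83.2% were in a separate list (77.4 to 87.8%), 73.6% in a sedentary and 44.7% in an exercised one.

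**Figure D4:**
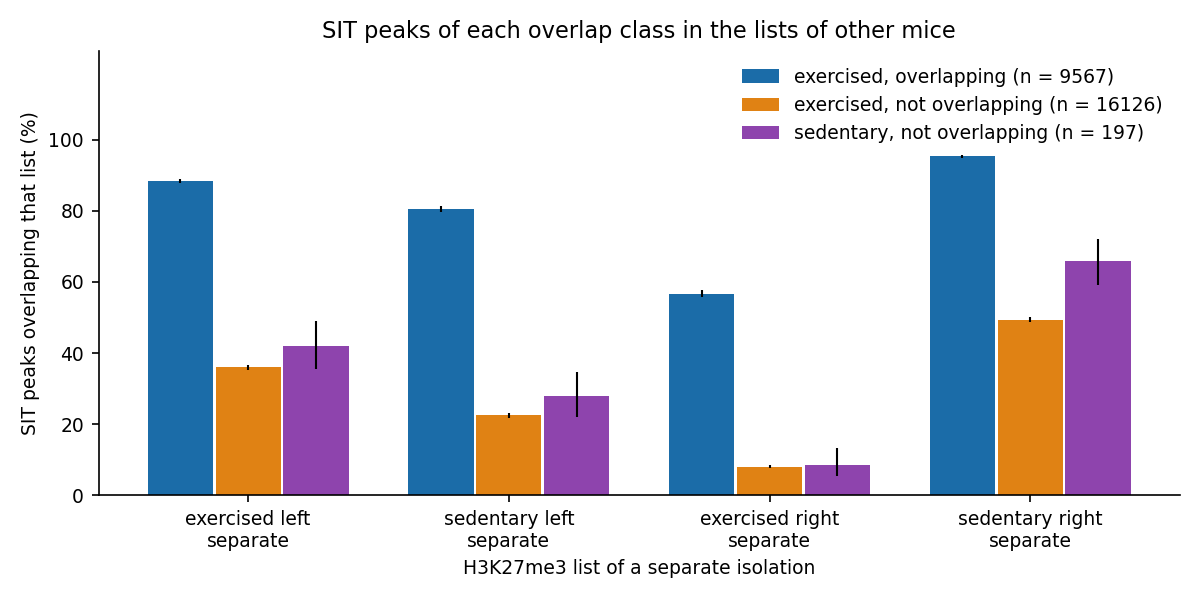
Share of H3K27me3 SIT peaks (vertical axis, %) that overlapped each H3K27me3 list of the separate isolations (horizontal axis), for exercised peaks with and without a sedentary overlap and sedentary peaks without an exercised overlap, with 95% Wilson intervals. Exercised peaks without overlap were found in 49.4% of cases in the right sedentary list and in 7.99% in the right exercised list.

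Few peaks of any class overlapped a called peak of the activating mark H4K8ac, which does not show that the mark itself was absent. An H4K8ac peak of the exercised SIT list overlapped 1.40% of the shared exercised peaks and 0.769% of those without overlap, and one of the sedentary SIT list 0.941% and 0.651%. The last of these shares stands for 105 of the 16126 exercised peaks without overlap.

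Genes were then counted by the symbols the annotation gave to peaks. Of 6539 genes with a peak in either list, 3763 were in both (57.5%), 2709 in the exercised list alone (41.4%) and 67 in the sedentary list alone (1.02%). Among the genes in both, the exercised list had more peaks for 2379, equal numbers for 1219 and fewer for 165, and the median ratio of total peak width was 1.64 (quartiles 1.19 and 2.37). The genes of the exercised list alone had little peak territory, a median of 3241 bp in all against 14290 bp for exercised peaks of genes in both lists. Of the 2709, 1728 had a single peak (63.8%), 1021 had a promoter peak (37.7%), and 954 had distal intergenic peaks only (35.2%). With the 10279 widest peaks of each list, 655 genes were in the exercised list alone and 540 in the sedentary list alone. With peaks of at least 3 kb the counts were 1404 and 204. The excess of genes in the exercised list alone was smaller at both settings. Equal numbers of peaks draw such counts together by construction, so the part of list length was not tested.

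Ranked by the territory of their peaks without overlap, the first genes of the exercised list alone mostly had many small peaks. Mir6239, a microRNA gene, had 11 peaks and 41757 bp, the widest in an intron 499121 bp from its start and 590431 bp from any sedentary peak. Fgf9, a fibroblast growth factor, had 12 peaks and 31318 bp, with none at a promoter and the widest 436643 bp away. Slc8a3, a sodium-calcium exchanger, had 12 peaks with 32470 bp, 3 of them at promoters. Rgs17, a regulator of G protein signalling, had 6 peaks with 31284 bp, of which one of 12942 bp lay upstream at -376875 bp. Tmem241 (41496 bp), Gm3558 (38352 bp), Gm5458 (36527 bp), Prr16 (30647 bp), BC055402 (29632 bp) and Mad1l1 (29343 bp) completed the 10 with most. A start site lay in an exercised peak for Gm5458, Prr16 and BC055402. Gm3558 and Gm5458, like Gm10406 and Gm3264 with the widest peaks without overlap (21566 and 19680 bp), are predicted genes on chromosome 14, parts of which hold many near-identical gene copies, where short reads are hard to place.

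The other widest exercised peaks without overlap lay at Tshz3 (16875 bp), a zinc finger regulator of development, at Duxf3 (16302 bp), a repeated homeobox gene, and at Ptgfrn (15010 bp). The Tshz3 peak stood 1315 bp from a sedentary peak and the Duxf3 peak 663341 bp from one.

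Genes of the sedentary list alone were few, and 64 of the 67 had a single peak. For 40 of them a peak overlapped an exercised peak that did not carry their symbol. Ranked by the territory of peaks without overlap, the first 10 were Katnal1 (4010 bp), Gm36283, Trim2, Gpr6, Arhgef17, Olfr725, Oas1e, Agpat5, Wdr41 and Slc29a3 (3464 bp), each with 1 peak. Katnal1 codes for a subunit related to the microtubule-severing enzyme katanin, and its peak lay in an intron, 179988 bp from any exercised peak. The peak at Wdr41 was 2094 bp from an exercised peak. Only Olfr725, an olfactory receptor gene, had its start site inside the sedentary peak. Among the sedentary peaks without overlap, those at Gm15319 (10480 bp), Stx18 (5748 bp) and Eya1 (5463 bp) followed the one at Sprr2a2 in width.

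Start sites inside peaks gave another count that does not depend on a single gene per peak. With all transcripts in place of the basic set, an alternative added after the data were seen, 3127 genes were in both lists (60.9%), 1876 in the exercised list alone (36.5%) and 131 in the sedentary list alone (2.55%). The class of 314 genes differed, which is stated below for the members named. The counts that follow are for the basic set, and each is to be read beside the 60.7% of all such genes in both lists and the 36.6% in the exercised list alone. With all transcripts the counts in the exercised list alone were 10 for potassium channels, 5 for keratins and 3 for cytochrome P450 genes. Of 4881 genes with a start site in a peak of either list, 2965 were in both (60.7%), 1785 in the exercised list alone (36.6%) and 131 in the sedentary list alone (2.68%). Of 21924 protein-coding genes, 1644 (7.50%) were in both, 822 (3.75%) in the exercised list alone and 58 (0.265%) in the sedentary list alone. Among the 131, 107 start sites (81.7%) lay in a sedentary peak that overlapped an exercised one, and the median distance from start site to exercised peak was 442 bp. Among the 1785, 441 (24.7%) lay in a peak that overlapped a sedentary one, and the median distance was 21180 bp.

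Developmental transcription factors were marked in both lists. Of 39 Hox genes with a start site in a peak, 38 were in both, and Hoxa13 was in the sedentary list alone because the exercised peak ended 247 bp short of it. Of 116 other homeobox genes with a start site in a peak, 110 were in both, 4 in the exercised list alone, such as Nkx6-3, Six4 and Tlx3, and 2 in the sedentary list alone (Lhx9 and Nkx2-4). The start sites of Tlx3 and Nkx2-4 were 174 and 82 bp from a peak of the other list, and Six4, a homeobox factor of muscle and sensory development, was 49241 bp from one. The domains were broad: Irx3 had 279 kb of assigned peaks in the exercised and 212 kb in the sedentary list, Pax3 209 and 173 kb, and Nkx6-1 167 and 113 kb.

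Other factor families were close to this. Of 25 forkhead genes with a start site in a peak, 21 were in both lists and 4 in the exercised list alone (Foxa3, Foxe1, Foxn1 and Foxs1). Of 27 SOX, T-box and GATA genes 25 were in both, while Sox3 and Sox5 were in the exercised list alone. Sox6, which is active in interneuron and glial development, had the most territory of this list, with 607 kb in 45 exercised peaks and 440 kb in 51 sedentary peaks. Foxd3, a neural crest factor, had 114 and 92.2 kb, and Tbx5, a heart and limb factor, 117 and 99.5 kb.

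Secreted ligands came next. Of 14 WNT ligands with a start site in a peak, 11 were in both lists and Wnt2, Wnt5a and Wnt7a in the exercised list alone. The Wnt2 start site lay in a 3654 bp exercised peak, 440165 bp from any sedentary peak, and that of Wnt5a 604 bp from one; with all transcripts Wnt5a was in both. Of 13 BMP, GDF and TGF-beta ligands, 9 were in both and Bmp8a, Gdf3, Gdf5 and Inhbb in the exercised list alone, each in a peak of 2370 to 4414 bp without a sedentary overlap. Of the FGF ligands, 7 had a start site in a peak, in both lists, among them Fgf8 with 13.2 kb in each, and with all transcripts Fgf10 was added in the exercised list alone.

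Receptors, channels and matrix genes are given beside the 36.6% of all genes with a start site in a peak that were in the exercised list alone, and the counts of these small lists lay on both sides of that share. Of 16 monoamine and acetylcholine receptors with a start site in a peak, 9 were in both lists and 7 in the exercised list alone (Adra1a, Chrnd, Chrng, Drd1, Htr1b, Htr1d and Htr2a), of which Chrng was in both with all transcripts. The start site of Htr1b, a serotonin autoreceptor, lay in a 10454 bp exercised peak, 335956 bp from the nearest sedentary peak. That of Drd1, the D1 dopamine receptor, lay in a 6380 bp exercised peak that overlapped a sedentary peak, 1352 bp from it. Of 25 potassium channel genes 16 were in both, 8 in the exercised list alone, such as Kcnj10 and Kcnt1, and 1, Kcnh6, in the sedentary list alone. Of 7 glutamate receptor genes 4 were in both, and Grin3b, Grm4 and Grm8 in the exercised list alone, of which Grm8 was in both with all transcripts. A GABA-A subunit, Gabrp, was the only one of its list of 19 with a start site in a peak, in both lists.

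Of 23 collagen genes with a start site in a peak, 15 were in both lists, 7 in the exercised list alone, among them Col1a1, and 1, Col15a1, in the sedentary list alone. Ephrins and Eph receptors, the guidance ligands and receptors to which Efnb2 belongs, had 3 start sites in peaks, 2 in both lists and that of Efna5 in the exercised list alone. By assigned symbols, 6 of the 9 listed members were in the exercised list alone, beside 41.4% of all listed genes. Keratins, intermediate filament genes of epithelia, had 6 start sites in both lists and 4 in the exercised list alone.

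The clustered chemosensory receptors had the largest exercised-alone shares among lists with more than 10 start sites in peaks. Of the olfactory receptor genes with a start site in a peak, 45 were in both lists, 52 in the exercised list alone and 5 in the sedentary list alone, beside 36.6% of all such genes in the exercised list alone. Of 24 vomeronasal receptor genes the counts were 8, 14 and 2. These are families of similar genes in tandem arrays, so the placing of reads is less certain there. The listed members were a small share of each family, 183 of 1107 olfactory and 51 of 328 vomeronasal receptor genes by assigned symbol.

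**Figure D5:**
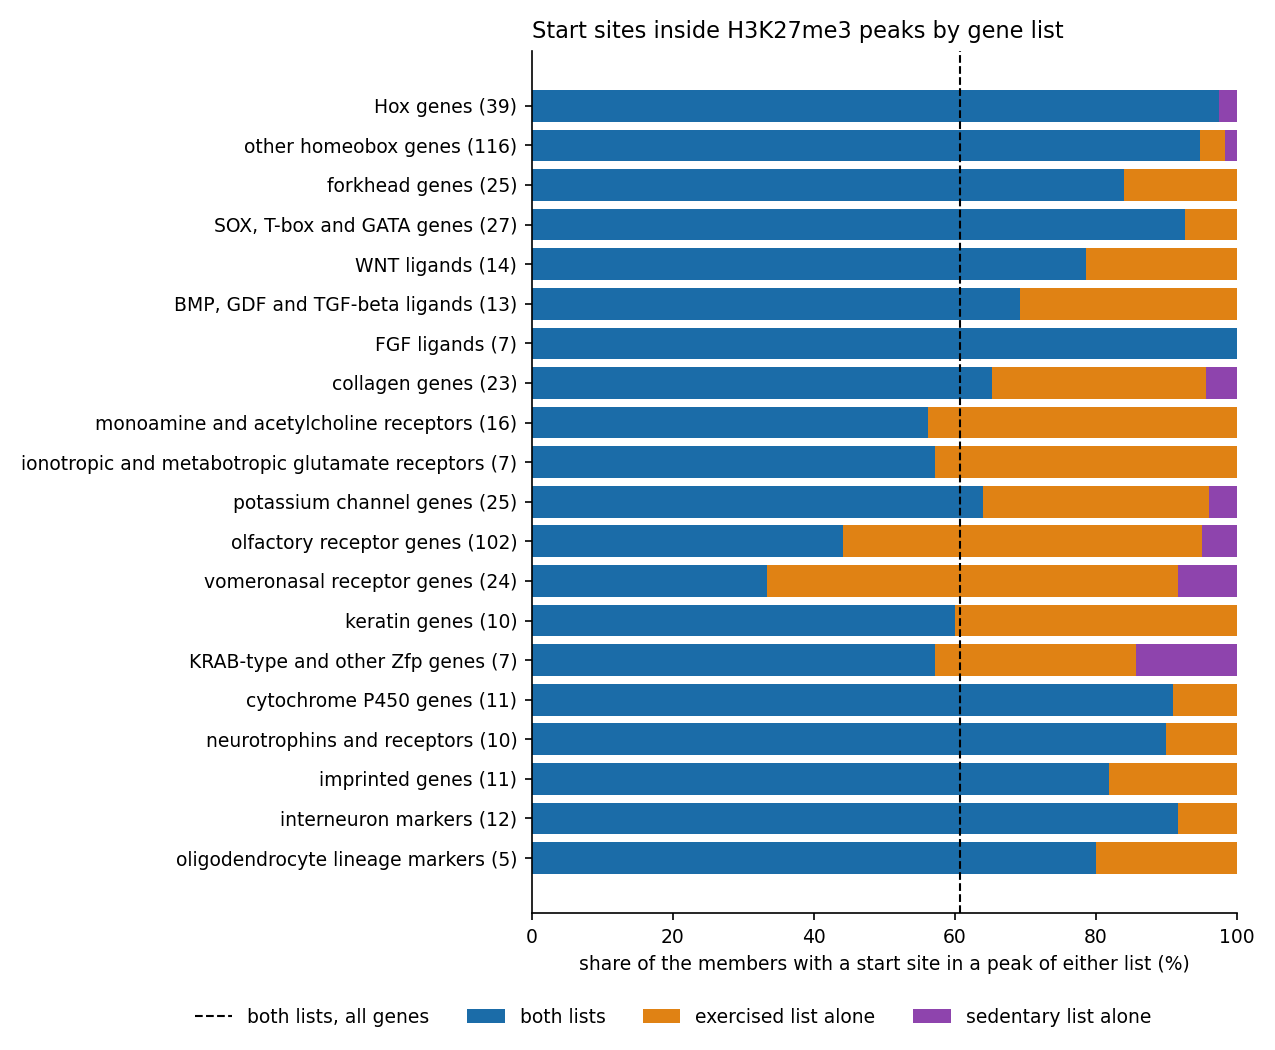
Share of members with a start site (basic transcripts) in an H3K27me3 peak of either SIT list (horizontal axis, %; number of such members in parentheses) that were in both lists, in the exercised list alone or in the sedentary list alone, for gene lists with 5 or more. The dashed line marks the 60.7% of all such genes that were in both lists; the homeobox lists stand above it and the olfactory and vomeronasal receptor lists below it.

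Lists tied to silencing, growth and plasticity ranged from many marked start sites to none. Of 10 neurotrophins and receptors with a start site in a peak 9 were in both lists, and Gfra1, a GDNF co-receptor, was in the exercised list alone. Cdkn2a, an inhibitor of the cell cycle and a classic Polycomb target, had 65.9 kb in the exercised and 63.1 kb in the sedentary list, and Cdkn2c was in the exercised list alone by start site, 1922 bp from a sedentary peak. Of 25 immediate early and plasticity genes and of 30 Polycomb subunit genes, 0 had a basic start site in a peak of either list, and with all transcripts Egr2 had one in the sedentary list alone. Fos and Jun, activity-induced transcription factors, were given exercised peaks by the annotation, but the nearest lay upstream, at -41321 bp from the start of Fos and -131753 bp from that of Jun. Other members of that list had nearer assigned peaks. Gadd45g had one at -2869 bp in the exercised list alone. In the exercised and sedentary lists, Nr4a2 had them at 39 and 8149 bp, Egr2 at -481 and 0 bp, and Klf4 at 5851 and 6186 bp. Of 11 imprinted genes with a start site in a peak 9 were in both, and Ddc and Meg3 were in the exercised list alone, of which Ddc was in both with all transcripts. Cytochrome P450 genes had 10 start sites in both lists and 1, Cyp26c1, in the exercised list alone. Zfp genes had 4, 2 and 1 in both lists, the exercised list alone and the sedentary list alone (8, 4 and 0 with all transcripts), and clustered protocadherins a single one, Pcdhb1, in the exercised list alone.

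Markers of other cell types with a start site in a peak were few, so their counts say little beside the 60.7% of all such genes that were in both lists. Interneuron genes had broad peaks in both lists, such as Dlx5 with 53.8 kb in the exercised and 50.5 kb in the sedentary list, Lhx6 with 33.5 and 25.7 kb, and Gad2, a GABA-synthesizing enzyme, with 25.2 and 21.5 kb. Olig2, the oligodendrocyte lineage factor, had 89.8 and 78.7 kb. Of 5 oligodendrocyte lineage markers with a start site in a peak 4 were in both, and Cspg4 was in the exercised list alone. Astrocyte markers had 3 start sites in both lists (Aqp4, Aldh1l1 and Gja1), and with all transcripts that of Aldoc was in the exercised list alone. Microglia markers had Cx3cr1 in both and Tmem119 in the exercised list alone, and endothelial markers had Cldn5, Kdr and Flt1 in both.

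The genes the study names for H3K27me3 were chosen there on these samples, so their direction is not independent evidence. Col3a1 (ENSMUSG00000026043, chr1:45311538-45349706), a fibrillar collagen, was given 2 exercised peaks of 2228 and 2600 bp. Both were intergenic, at -280481 and -273542 bp from the start site, and neither touched the gene. Efnb2 (ENSMUSG00000001300, chr8:8617434-8661242) was given exercised peaks of 6125 and 1894 bp. They lay 60847 and 304205 bp from the start of the transcript the annotation used, which is inside the gene. From the promoter printed above, the nearer was 82676 bp away. No peak of either list touched the gene or its promoter printed above. Epop (ENSMUSG00000043439, chr11:97627389-97629702), which encodes a partner of PRC2, had an exercised peak of 2404 bp over 59.7% of the gene (chr11:97626366-97628769). Its nearest sedentary peak was 287854 bp from the gene. Myoc (ENSMUSG00000026697, chr1:162639155-162649693) had a 1935 bp exercised peak upstream and a 3936 bp exercised peak over its start site, and the nearest sedentary peak lay 9326 bp from that site. A peak over the end of the gene, assigned to Myocos, was present in both lists. Epop and Myoc therefore had exercised peaks on the gene, whereas those of Col3a1 and Efnb2 were remote.

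Fdxr and Rtl1 were in the sedentary list alone by symbol, though the same regions had exercised peaks. At Fdxr, a mitochondrial ferredoxin reductase gene, the sedentary peak of 14127 bp (chr11:115255021-115269147) was 96.6% covered by an exercised peak that the annotation gave to the neighbour Grin2c. With all transcripts, a start site of Fdxr lay in the sedentary peak and not in the exercised one. At Rtl1, an imprinted retrotransposon-derived gene, the 10005 bp sedentary peak (chr12:109597405-109607409) lay wholly inside an exercised peak given to Mir1188. Prox1 had peaks in both lists by symbol, 23 exercised with 171 kb and 14 sedentary with 90.8 kb. These totals leave out peaks given to Prox1os, among them a peak of each list over the Prox1 gene. That sedentary peak held the whole of a 21841 bp exercised peak that was counted for Prox1. The totals by symbol therefore do not compare the same territory, and part of their difference comes from the assignment. Over the gene itself, 97.4% of bases were covered in the exercised and 88.7% in the sedentary list, so the added exercised peaks lay mainly in its flanks. Bdnf, the neurotrophin, had no peak in either list, and the nearest lay 454545 bp away in the exercised list.

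Start sites and symbols also parted at other genes. Hoxd3, Pdx1 and Ntf5 were in the sedentary list alone by symbol, and each had its start site in peaks of both lists. Onecut1, Nkx2-1, Gata5, Grin2c and Kcnj15 were in the exercised list alone by symbol, and their start sites too lay in peaks of both lists. The exercised peaks given to Nkx2-1, Gata5 and Kcnj15 overlapped no sedentary peak, and 1 of the 2 peaks given to each of Onecut1 and Grin2c did.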

How the data were processed

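The authors aligned CUT&RUN reads with Bowtie2 2.4.1 to mm10 after FastQC 0.11.9, called peaks with SEACR (stringent, threshold 0.01) and annotated them with ChIPseeker 1.8.6, with promoters within 3 kb of a start site. Each deposited list pools its group; how libraries were combined is not given in the sources used here. The deposited lists hold each peak's coordinates, width, annotation, distance to a start site and gene symbol, with no signal value. From the coordinates, overlap (at least 1 bp), width, gaps, annotation, gene symbols and sequence composition were computed with Python 3.11.15, numpy 2.4.6, pandas 2.3.3 and scipy 1.17.1, and drawn with matplotlib 3.10.9. Wilson intervals (95%) cover counting of peaks only. Peaks are not replicates, so no test was run. Interval code was tested on simulated data (20 of 20 sets matched). Of 8901 assigned transcripts found in GENCODE M21, 8881 (99.8%) had the same coordinates, so GRCm38.p6 sequence was used.

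The members and gene lists were chosen with earlier results of these data known. The genes named were those the study names for the mark, the 10 genes of each list alone with most peak territory without overlap, the 5 widest peaks of each kind, and up to 4 members of each gene list and class with most territory. Genes with a start site in 1 list alone were named after their values were seen. Alternatives were reciprocal overlap, a 5 kb tolerance, joined peaks, a 3 kb width minimum, equal numbers of peaks, main chromosomes alone and other gene rules. The 20 IgG samples were not analysed here. Some results are not reported here.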

Additional observations from a re-analysis of the deposited data

Results flagged for a closer look

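The share of exercised peaks with overlap minus the share of sedentary peaks with overlap was -60.8 percentage points in the simultaneous isolation (37.2% and 98.1%) and 63.0 in the right hippocampus isolated separately (94.7% and 31.6%). It was flagged because the sign was opposite in these arms, each with 1 pooled list per condition; the difference was not tested. In the left hippocampus it was -20.8 (61.4% and 82.1%). The ratio of exercised to sedentary peak number was 2.50, 0.454 and 1.26 in these arms, in the same order.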

How the results depend on the processing

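Of 34 alternative values for 5 results, 12 stayed close to the reported value and 22 moved, where close means within the counting interval for a share and within 1.5 times for a gene count. At a reciprocal overlap of 50%, 24.8% of exercised and 61.9% of sedentary peaks overlapped, and 13.1% of exercised peaks without overlap were promoter peaks. A 5 kb tolerance gave 50.4% and 99.3%, and joining peaks gave 40.6% of exercised peaks. With peaks of at least 3 kb the values were 53.3%, 91.7% and 15.3%, with 1404 genes in the exercised and 204 in the sedentary list alone. With equal numbers of peaks they were 70.8%, 82.8% and 14.0%, with 655 and 540 genes. Promoters within 1 kb made up 7.76% of exercised peaks without overlap. By start site, 1785 and 131 genes were in 1 list alone, and with all transcripts, a choice made after seeing the data, 1876 and 131. By promoter peaks, 1407 genes were in the exercised list alone, and without genes whose peak overlapped the other list, 27 were in the sedentary list alone. Each setting changes by construction which peaks or genes are counted.

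No paired analysis was possible because each list pools its samples. Leaving out a replicate was not possible either. The sequencing depth of each library is unknown, so no limit of detection can be given for either list.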
